A study of Homo sapiens with 16 samples.

Results

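Occupancy of eGFP-YAP on chromatin was compared between HEK293 cells given sorbitol and cells given vehicle, over every interval of the count table on chromosomes 1 to 22 and X that lay outside the YAP1 gene. This rule kept 73975 of 74404 intervals. The other 429 lay on the mitochondrial genome (9), in the YAP1 gene at chr11:102110447-102233424 (12), on chromosome Y (64) or on unplaced contigs (344). The kept intervals had a median width of 423 bp, and all coordinates are given on hg38. Of the kept intervals, 22533 (30.46%) passed the filter on low counts and were tested, and 1534 had no count in any of the 4 libraries used.

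HEK293 is a line derived from human embryonic kidney, and the cells of every group carried an eGFP-YAP genotype, that is, YAP joined to the green fluorescent protein. How the fusion was introduced, how much of it the cells made and whether the line was a clone are not given in the sources used here. The series was built around a hyperosmotic stress of 200 mM sorbitol, applied after serum starvation according to its design text, and CUT&Tag was run on nuclei with antibodies against GFP, CTCF, RAD21 or the acetylated histone H3K27ac. CUT&Tag directs the transposase Tn5 to an antibody, so that DNA beside the bound protein is cut and sequenced. The GFP antibody reads the fusion protein, and its libraries are called YAP1 below. The comparison rests on 2 vehicle and 2 sorbitol libraries, the latter collected after 1 h. Column names place vehicle at 0 h and sorbitol at 1 h, so that time and treatment cannot be told apart from the names, while the labels describe the controls as collected alongside. No source says that libraries of a group came from separate cultures, so p-values measure only the spread between these libraries, which may be technical.

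YAP is a transcriptional co-activator of the Hippo pathway. The kinases LATS1 and LATS2 phosphorylate it and keep it in the cytoplasm. In the nucleus it has no DNA-binding domain of its own and reaches chromatin mainly through the TEAD transcription factors, which recognise the letters GGAATG, which read as CATTCC on the other strand, often at enhancers together with AP-1. ANKRD1, CCN1, CCN2 and AMOTL2 are among its best known target genes. Hyperosmotic stress draws water out of cells, crowds their contents, and has been reported to change where YAP sits in the cell.

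Sequencing depth and composition differed between the groups. The vehicle libraries held 3820932 and 3339202 counts over the whole table, and the sorbitol libraries held 2568745 and 2337173. Mitochondrial intervals took 36.52% and 38.14% of these counts in vehicle but 55.44% and 57.76% in sorbitol. The kept intervals were left with 1961929 and 1652645 counts in vehicle against 803927 and 659976 in sorbitol, so a fall was measured with fewer counts than a rise. Between libraries of a group, the correlation of log2 CPM across the kept intervals was 0.922 in vehicle and 0.748 in sorbitol, a description without a test. Marker promoters of embryonic kidney carried H3K27ac in vehicle, from 11.2 CPM per kb at EYA1 to 102.6 at HOXD10. Promoters of the colon genes CDX2 (53.4 and 54.2 CPM per kb) and LGR5 (42.0 and 46.9) carried it as well, while KRT20, VIL1, PTPRC, ALB and AFP had no promoter interval.

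The sequences below show the TEAD letters inside intervals that lost eGFP-YAP counts with sorbitol, read from hg38. Each window has 100 bases, runs 5′ to 3′ on the strand that reads GGAATG, and has the letters GGAATG or CATTCC in capitals. ANKRD1 and CCN1 are shown as known YAP target genes, and TRAF3IP2-AS1 as an intronic site among the largest falls. Windows near TRPC6P5 and in TULP4, LIN9 and near TMEM120B are shown because they share letters around the match. The windows near TRPC6P5 and in LIN9 are identical from GGAATG to their end. Those in TULP4 and near TMEM120B share long runs on both sides of it, so the likeness goes far beyond the TEAD letters. The windows lie at chr10:90921255-90921354 (minus strand), chr1:85584473-85584572 (minus), chr6:111552318-111552417 (minus), chr11:121236542-121236641 (plus), chr6:158405585-158405684 (minus), chr1:226272609-226272708 (plus) and chr12:121710291-121710390 (minus), in the order of the lines.
ANKRD1: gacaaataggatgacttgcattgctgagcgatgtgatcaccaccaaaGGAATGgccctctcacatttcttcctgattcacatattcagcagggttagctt
CCN1: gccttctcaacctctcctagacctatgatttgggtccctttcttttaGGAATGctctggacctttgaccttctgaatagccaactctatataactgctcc
TRAF3IP2-AS1: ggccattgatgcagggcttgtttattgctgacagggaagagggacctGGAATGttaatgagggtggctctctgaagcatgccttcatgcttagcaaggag
TRPC6P5: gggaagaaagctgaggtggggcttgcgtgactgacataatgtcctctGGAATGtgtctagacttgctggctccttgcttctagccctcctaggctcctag
TULP4: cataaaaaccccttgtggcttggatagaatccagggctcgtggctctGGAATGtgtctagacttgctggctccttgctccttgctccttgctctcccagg
LIN9: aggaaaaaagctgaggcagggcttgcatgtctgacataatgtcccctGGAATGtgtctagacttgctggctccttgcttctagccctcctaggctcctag
TMEM120B: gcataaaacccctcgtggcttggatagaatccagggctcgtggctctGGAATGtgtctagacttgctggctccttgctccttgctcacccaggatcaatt

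A last window, shown for contrast because its interval gained counts, comes from a tandem repeat of the letters GGAAT on chromosome 5 at chr5:49602090-49602189 (plus strand). The window holds 7 matches and its interval 136, so the same letters occurred both where eGFP-YAP counts fell and where they rose.
Tandem repeat: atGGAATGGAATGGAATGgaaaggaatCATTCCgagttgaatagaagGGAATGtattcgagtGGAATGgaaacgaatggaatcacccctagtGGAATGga

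Of the 22533 tested intervals, 1057 were higher and 336 were lower with sorbitol at an adjusted p under 0.05. The share called was 6.18% in either direction, 4.69% higher and 1.49% lower. In all 1393 called intervals the sorbitol and vehicle libraries did not overlap in CPM. Intervals that pass the test tend to separate in this way, so this is no added evidence. The share without overlap over all tested intervals was not counted. The median log2 fold change was 1.87 among the higher calls. Among the lower calls it was -1.87, or -1.55 with the 55 intervals that had 0 counts in both sorbitol libraries set to their bound against 3 counts per library. At the edge of the threshold, the last interval called had an adjusted p of 0.0499 and the first one left out 0.0503. A loss of eGFP-YAP per cell and a smaller share of cells with bound eGFP-YAP cannot be told apart in such bulk libraries.

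These changes are relative to the typical tested interval, whose log2 fold change was -0.04 under the TMM scaling used throughout. Scaling to the weakest 25% of intervals placed that median at -0.25, to the total over kept intervals at -0.71, and to the total over the table at -1.47. Rises made up 75.88% of the calls under TMM, 55.11% under the weakest 25% of intervals, 12.68% under the total over kept intervals and 1.69% under the total over the table. The counts therefore order intervals by their change and do not give the change of the whole. The number of falls also moved with single libraries, down without a vehicle library and up without a sorbitol library. Without vehicle library 1, 39 intervals were lower and 652 were called in all, and without vehicle library 2 the numbers were 40 and 714. Without sorbitol library 1, 917 were lower and 2137 called, and without sorbitol library 2, 1024 and 2287.

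**Figure D1:**
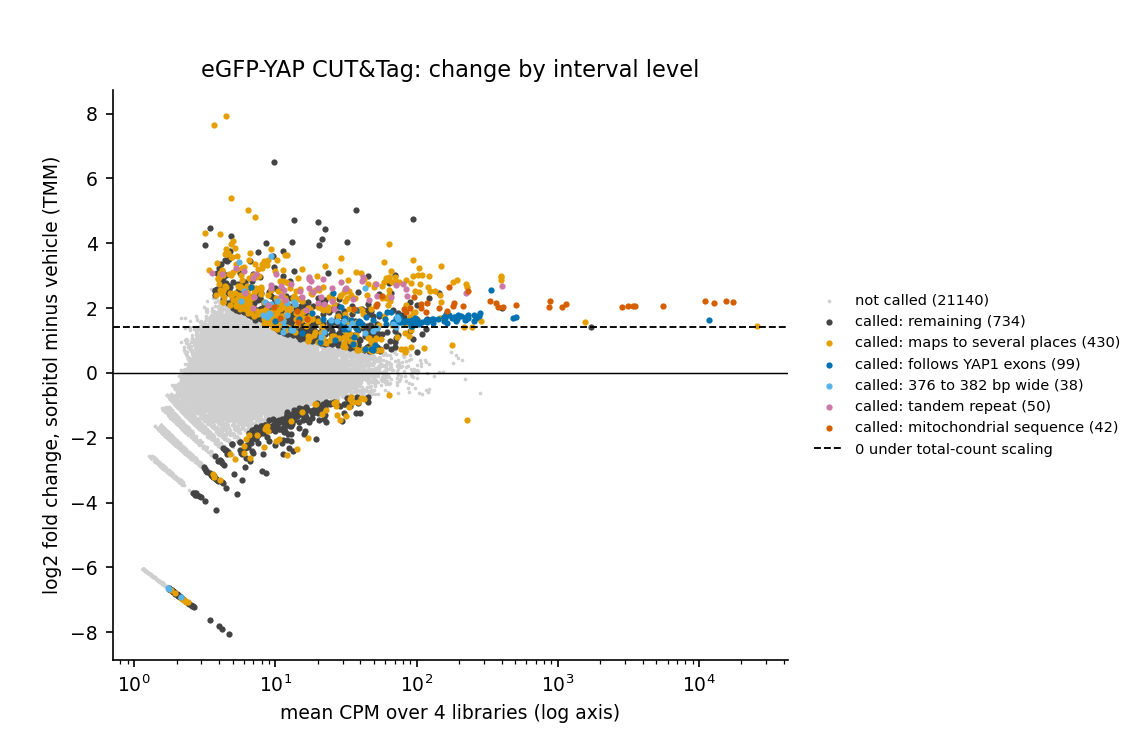
Log2 fold change of YAP1 counts, sorbitol minus vehicle, against the mean CPM over the 4 libraries on a log axis, with 1 point per tested interval. Called intervals are coloured by the group of sequence they belong to, the dashed line marks where 0 would lie if libraries were scaled to their total count, and the strings of points at the lower left are intervals with few or no sorbitol counts. The highest levels belonged to intervals with mitochondrial sequence, to intervals that map to several places and to YAP1P1, all above 0.

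Many rises lay in stretches of sequence that repeat elsewhere or whose counts followed another part of the table. Intervals were sorted into 5 such groups and a remainder without using the YAP1 libraries. All 42 intervals that share 31-base words with the mitochondrial genome in over 5% of their length were higher, with log2 fold changes from 1.58 to 2.65, and 0 were lower at an unadjusted p under 0.05 in edgeR or by DESeq2. They held 9.10% and 9.85% of the kept counts in vehicle and 23.63% and 28.61% in sorbitol. The member with the most counts, at chr1:631851-632819, had 36497 and 33329 counts in vehicle and 39977 and 39319 in sorbitol. Its raw counts were slightly higher in sorbitol while the kept total was lower, and the TMM scale gave a log2 fold change of 2.19 ± 0.30 (SE). These intervals moved with the mitochondrial share of the whole library, and the part of that share in their rise was not tested.

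A group of 144 intervals followed the counts of the 7 intervals on YAP1 exons across the 8 CTCF and RAD21 libraries, and 99 of them were higher, 0 lower (1 at an unadjusted p under 0.05 in edgeR, 0 by DESeq2). YAP1P1, a processed pseudogene of YAP1 on chromosome 6 (chr6:147407104-147408273), held the most counts, with 33242 and 30325 counts in vehicle and 25707 and 24031 in sorbitol. Its level went from 5689 ± 421.5 to 17825 ± 3551 CPM (SD, n = 2), a log2 fold change of 1.65 ± 0.28 (adjusted p = 0.000665). An interval near FOXF2 (chr6:1387954-1388433), a forkhead transcription factor gene that is also on the list of YAP targets, belonged to this group and had 1343 and 1254 counts in vehicle against 1175 and 1011 in sorbitol. Beside these, the YAP1 gene itself took 11.57% and 11.83% of all YAP1 counts in vehicle and 12.43% and 13.21% in sorbitol. In CTCF libraries its share went from 4.02% ± 1.01 to 11.1% ± 0.109 (SD, n = 2). Whether reads of the fusion construct reached these intervals was not tested. The threshold of this group was an SD under 0.4 of the log2 ratio to the YAP1 exons. The nearest interval inside had 0.395 and the nearest outside 0.4003.

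Tandem repeats of GGAAT, a satellite sequence of pericentromeric DNA, gave 110 intervals, of which 66 were tested, 50 were higher and 0 were lower (1 at an unadjusted p under 0.05 in edgeR, 0 by DESeq2). They held 0.193% and 0.206% of the kept counts in vehicle and 0.686% and 0.591% in sorbitol. In the chromosome 5 interval printed above, chr5:49601414-49602859, counts were 630 and 587 in vehicle and 1186 and 818 in sorbitol, so raw counts were higher too. Its log2 fold change was 2.68 ± 0.21 for YAP1, beside 2.95 for CTCF, 1.79 for RAD21 and 1.68 for H3K27ac, all called. Intervals of which under 90% of 100-base tiles map uniquely numbered 10872, with 3378 tested, 377 higher and 53 lower. Among 858 intervals of nearly equal width, 138 were tested, 35 were higher and 3 were lower. The remaining 61949 intervals had 18765 tested, 454 higher (2.42%) and 280 lower (1.49%), with median log2 fold changes of 1.68 and -1.86 among these calls. The median of these falls was -1.61 with the 43 that had 0 counts in both sorbitol libraries set to their bound. The rise with the most counts among the remaining intervals was MTCYBP13, a pseudogene named after a mitochondrial gene (chr17:22521217-22521590). It had 5421 and 5003 counts in vehicle and 3531 and 3394 in sorbitol (log2 fold change 1.41). CTCF changed there by 0.95, RAD21 by -0.25 and H3K27ac by -0.97, against medians of 2.08, 0.91 and 0.04 at tested intervals of mitochondrial sequence. By its name the sorting may be incomplete, which was not tested. The share of the remaining intervals in the kept counts went from 69.25% and 67.18% to 49.73% and 42.14%. The results on named genes below refer to the remaining intervals unless a group is named, and counts over gene lists cover all tested intervals.

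Falls named by size were led by ANKRD1, a nuclear ankyrin repeat protein of muscle and a textbook YAP target. Its interval, chr10:90921107-90921672, begins 20 bp from a start site and held 92 and 79 counts in vehicle against 2 and 3 in sorbitol. The level dropped from 15.3 ± 0.479 to 1.87 ± 0.953 CPM (SD, n = 2), 8.71-fold lower with an exact 95% counting interval of 3.66 to 27.2, which covers counting error only. The fitted log2 fold change was -3.09 ± 0.53 (adjusted p = 0.000651). CTCF and RAD21 had too few counts there to be tested, and H3K27ac did not pass the test (log2 fold change -0.33, adjusted p = 0.66).

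Other falls of this size lay at start sites, in exons and in introns. PPP1R12B, a subunit of myosin phosphatase, had 85 and 76 counts in vehicle and 4 and 1 in sorbitol in a UTR interval (chr1:202589135-202589773, log2 fold change -3.02). DTNB, which encodes dystrobrevin beta, had 64 and 65 against 3 and 2 at its start site (chr2:25672717-25674109, -2.70). RAB32, a small GTPase of organelle traffic, had 92 and 65 against 4 and 3 at its start (-2.49). In all of these the sorbitol libraries lay far under the vehicle libraries, and the lack of overlap was required by the rule for naming. Calls were lost at DTNB without vehicle library 2 (-2.53, adjusted p = 0.0956) and at RAB32 without vehicle library 1 (-2.36, adjusted p = 0.0685).

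RSL1D1, a nucleolar protein of ribosome assembly, had 122 and 129 counts in vehicle and 8 and 4 in sorbitol (log2 fold change -2.42). TMEM14C, a mitochondrial membrane protein needed for heme synthesis, had 103 and 83 against 6 and 4 (-2.23). COG3, a subunit of the oligomeric Golgi complex, had 73 and 67 against 6 and 2 (-2.16). SLURP1, a secreted Ly6 protein, had 89 and 46 against 4 and 2 in an interval downstream of the gene (-2.48). CTCF was tested at each of PPP1R12B, DTNB, RAB32, RSL1D1, TMEM14C, COG3 and SLURP1 and called at none, with log2 fold changes from -0.72 at COG3 to 0.25 at SLURP1 (edgeR, adjusted p from 0.22 to 0.74). SLURP1 lost its call without vehicle library 1, and COG3 without either vehicle library.

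The falls outside promoters were mostly intronic or intergenic. TRAF3IP2-AS1, a long non-coding RNA gene, had 109 and 110 counts in vehicle and 9 and 1 in sorbitol in an intron (chr6:111552101-111552831, log2 fold change -2.49). TULP4, a tubby-like gene, had 112 and 88 against 2 and 9 in an intron (chr6:158405376-158405889, -2.18). An intergenic interval 1332 bp from TRPC6P5, a pseudogene, had 112 and 119 against 8 and 4 (chr11:121236291-121236972, -2.30). H3K27ac was higher at that interval (0.76, adjusted p = 0.00131), so the mark and eGFP-YAP moved in opposite directions there. SAXO1, which encodes a microtubule-binding protein of cilia, had 70 and 57 against 2 and 4 in an intron (chr9:18976634-18977204, -2.40). TULP4 lost its call without sorbitol library 1 (-1.31, adjusted p = 0.0648), and SAXO1 without either vehicle library or sorbitol library 1.

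A pair of named falls lay in intervals that map to several places and is uncertain for that reason. JAKMIP3 had 56 and 68 counts in vehicle and 1 and 4 in sorbitol (log2 fold change -2.64). PCSK6, a proprotein convertase, had 126 and 105 against 4 and 6 at its start site (-2.54). JAKMIP3 lost its call without sorbitol library 1 and without vehicle library 2. Among the 14 named falls PCSK6 was the only interval that all 4 antibodies called lower, with log2 fold changes of -1.46 for CTCF, -2.79 for RAD21 and -1.49 for H3K27ac.

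**Figure D2:**
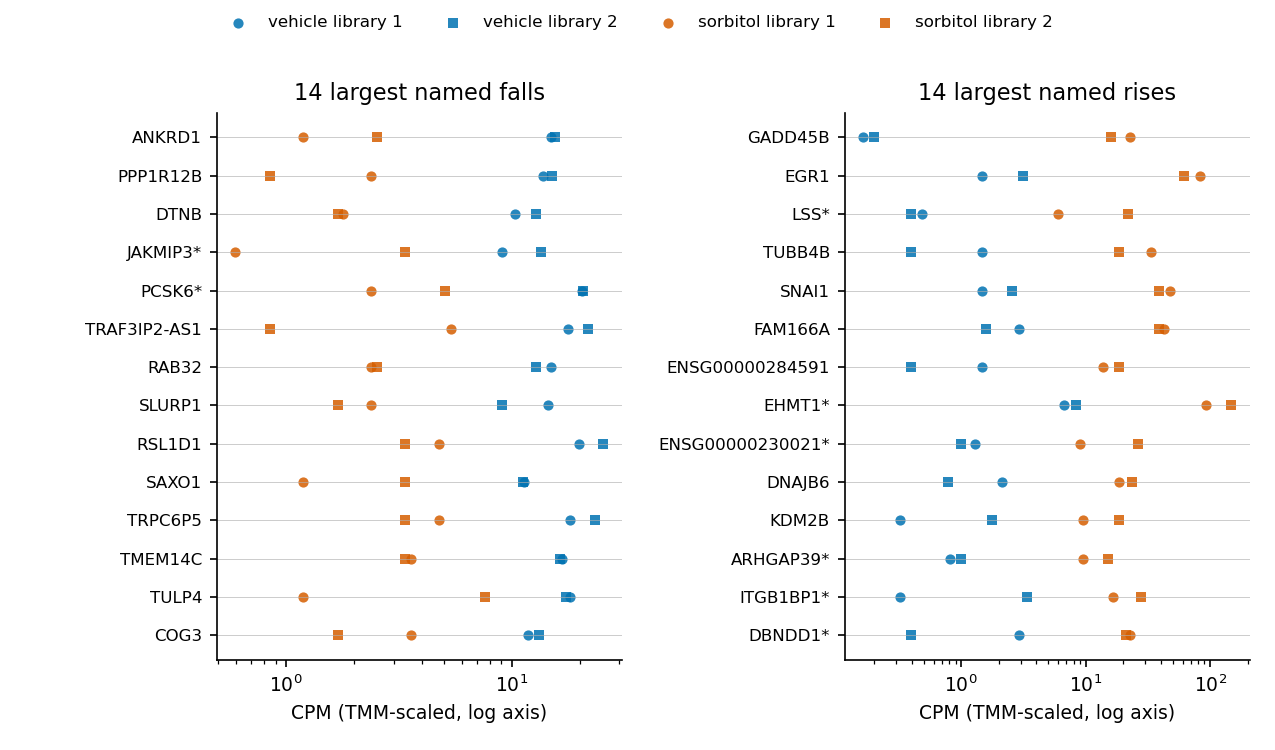
CPM on TMM-scaled library sizes, on log axes, for the intervals of the 14 largest named falls (left) and the 14 largest named rises (right), with each of the 4 YAP1 libraries as a point. An asterisk marks intervals of which under 90% of tiles map uniquely. In every row the sorbitol and vehicle libraries are separated, as the rule for naming required. At the falls the sorbitol points scatter more, as at TULP4 with 2 and 9 counts.

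The 22 listed YAP target genes gave 47 tested intervals, 4 lower and 1 higher, or 8.51% and 2.13%, against 1.49% and 4.69% over all tested intervals. Their median log2 fold change was -0.31, beside -0.04 over all. Besides ANKRD1, the falls were at CCN1, AMOTL2 and RBMS3, and the rise was the FOXF2 interval that followed the YAP1 exons. This list was chosen with earlier results of these data known and is no independent evidence of a direction.

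CCN1, a secreted matrix protein, was called lower at the far end of the gene and not at its promoter. The interval at chr1:85584288-85584678, 3.72 kb from the start of a gene of 3.83 kb and annotated as a non-coding exon, had 98 and 70 counts in vehicle and 8 and 2 in sorbitol. It was 4.28-fold lower (log2 fold change -2.09 ± 0.47, adjusted p = 0.0082). The promoter interval had 224 and 205 counts against 38 and 45, with a log2 fold change of -0.38 that did not pass the test (adjusted p = 0.41). CCN2, a close relative of CCN1, had 180 and 134 against 57 and 37 at its promoter (0.23, adjusted p = 0.60), on the side of a rise under this scaling. Without vehicle library 1 the interval at the far end of CCN1 lost its call (-1.99, adjusted p = 0.112).

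AMOTL2, a junction scaffold that binds YAP and is itself a YAP target, had 269 and 223 counts in vehicle and 26 and 19 in sorbitol near its start site (chr3:134373436-134375047). Its level went from 43.8 ± 0.284 to 15.8 ± 0.417 CPM (SD, n = 2), a log2 fold change of -1.47 ± 0.24 (adjusted p = 0.000412). A pair of intronic intervals of AMOTL2 had log2 fold changes of -1.27 (adjusted p = 0.13) and -0.96 (0.58), which did not pass the test. In RBMS3, an RNA-binding protein gene, an intronic interval of the group of nearly equal width (chr3:29693938-29694314) with 21 and 26 counts in vehicle had 0 in both sorbitol libraries and was at least 1.97-fold lower, the bound set by 3 counts per library. RBMS3 lost its call without sorbitol library 1 and without either vehicle library, while AMOTL2 and ANKRD1 kept theirs without any 1 library. AMOTL2 was also the only call among 56 tested intervals of 29 Hippo pathway and TEAD partner genes, whose median was -0.36. This made 1.79% lower, near the 1.49% over all tested intervals. In that list 0 were higher, against 4.69% over all, with 2 at an unadjusted p under 0.05 in edgeR and 0 by DESeq2.

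The TEAD letters were more frequent in falls than in other intervals. GGAATG on either strand lay in the central 300 bp of 14.43% of the kept intervals and of 12.66% of the tested remaining intervals. Among the remaining falls 72 of 280 (25.71%) held it, against 53 of 454 rises (11.67%) and 12.48% of intervals that were not called. The difference lay outside promoters. In introns 30 of 51 falls (58.82%) held the letters, against 20.21% of intervals not called, and in other intergenic DNA 16 of 30 (53.33%) against 20.22%. At promoters it was 21 of 184 (11.41%) against 10.24%. Among the 280 remaining falls, 8 held the shared 14 bases described below, which include GGAATG. Those falls share sequence and are not independent members. Read the other way, 1.27% of tested intervals without the letters were lower, 2.84% of those with 1 match and 4.80% of those with 2 or more. Higher calls made up 2.45%, 1.99% and 4.00% of the same classes. A match is a description of the sequence and not a measured TEAD site. The filter on low counts can be passed through the vehicle libraries alone, and falls were not matched to intervals not called by vehicle level. How far selection by vehicle counts shaped these shares was not tested. Over all remaining falls the share with the letters was 14.83% without sorbitol library 1 and 19.18% without sorbitol library 2. Among distal falls (introns and other intergenic DNA), 56.79% held the letters with all libraries, 35.66% without sorbitol library 1 and 39.51% without sorbitol library 2. Without a vehicle library few distal falls were called, of which 6 of 10 and 4 of 9 held them.

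A share of counts inside a library needs no scaling between libraries and no filter on low counts, but it depends on the intervals it is a share of. Intervals that entered the table through the YAP1 vehicle libraries alone would lower a sorbitol share, and their part was not tested. Of the remaining intervals in introns and other intergenic DNA, here called distal, 5855 (17.33%) held GGAATG. They took 19.27% and 19.30% of the distal YAP1 counts in vehicle against 15.80% and 15.83% in sorbitol. The difference was -3.47 percentage points, with an SD of 0.0202 in vehicle and 0.0210 in sorbitol (n = 2 each). Set against all remaining counts, promoters included, the distal intervals with GGAATG other than 34 described below took 34862 and 35117 CPM in vehicle and 33083 and 35782 in sorbitol, which overlap. Distal intervals without GGAATG took 149542 and 150590 CPM of the remaining counts in vehicle and 177345 and 191483 in sorbitol. So the summed level with the letters did not separate the groups, while that without the letters was higher in both sorbitol libraries. Among distal counts of CTCF libraries the intervals with GGAATG went from 16.75% and 16.72% to 15.72% and 15.65%, and in RAD21 libraries from 16.25% and 16.49% to 15.28% and 15.15%. In H3K27ac libraries they went from 15.94% and 16.09% up to 16.52% and 16.50%. Of all remaining counts, the distal intervals with GGAATG other than the 34 changed by -0.02 on the log2 scale with YAP1, by -0.48 with CTCF and by -0.54 with RAD21, so the order of the antibodies depended on the denominator. Among promoter counts YAP1 gave 10.03% and 9.94% in vehicle and 9.74% and 10.04% in sorbitol, which overlap. Exact two-sided permutation tests of 2 against 2 libraries cannot go below 0.33, and gave that value for the share of distal counts and 1 for that of promoter counts.

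In all, 8 motifs were searched. AP-1, a dimer of FOS and JUN proteins that often sits beside TEAD, has the letters TGANTCA. Distal intervals with them took 12.48% and 12.50% of distal YAP1 counts in vehicle and 10.25% and 9.46% in sorbitol, while CTCF counts there went from 8.35% and 8.41% to 8.33% and 8.24% (exact permutation p = 0.33, the smallest possible). The CTCF consensus went the other way in YAP1 libraries, from 17.52% and 17.38% of distal counts to 18.23% and 19.19%. Over all kept intervals, repeats included, intervals with GGAATG went from 13.26% and 13.22% to 15.54% and 16.12% of YAP1 counts. In the remaining intervals alone that share went from 12.01% and 11.95% to 11.28% and 11.60%, so the direction over the whole table and that in the remaining intervals differed.

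**Figure D3:**
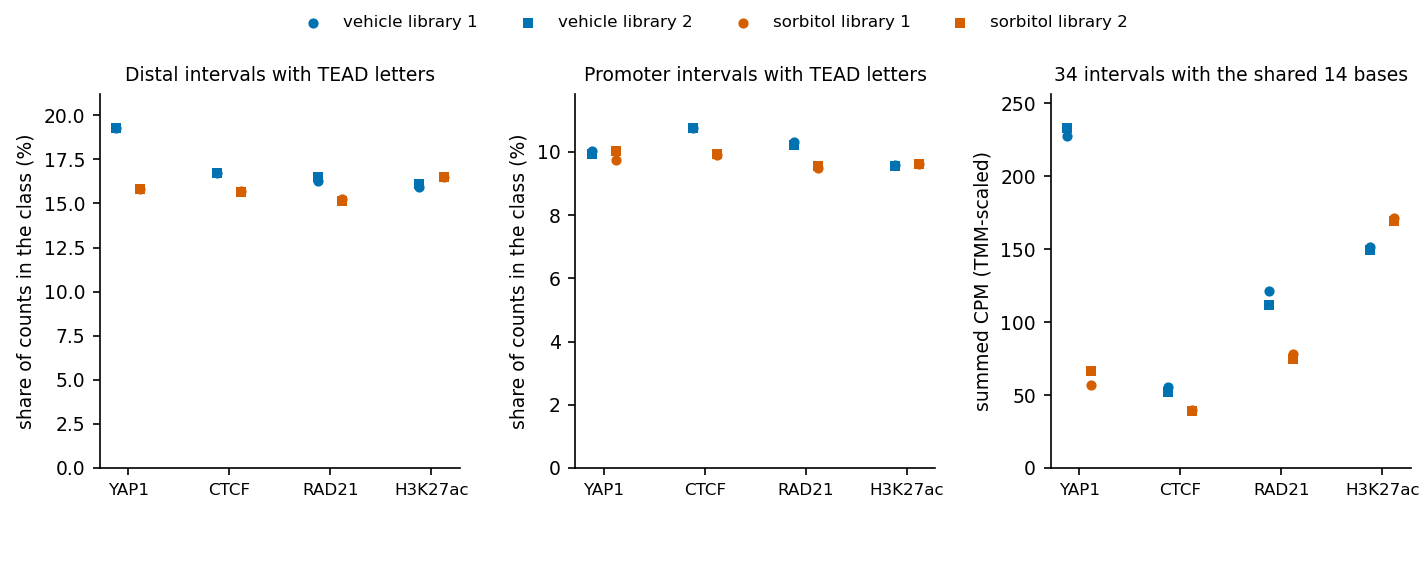
Share of counts in distal (introns and other intergenic DNA) and promoter intervals that fell to intervals with the TEAD letters, in percent, and summed CPM of 34 intervals that share 14 bases, for each library of the 4 antibodies. In the left panel YAP1 goes from 19.3% to 15.8% of distal counts, a share that also moves with the distal intervals without the letters, and in the right panel its vehicle libraries sit at 227.7 and 233.4 CPM and its sorbitol libraries at 56.6 and 66.9.

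A run of 35 bases, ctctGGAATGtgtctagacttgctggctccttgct, was common to the windows near TRPC6P5 and in TULP4 printed above. It was noticed after the values of these falls had been seen. Its 14 bases GGAATGtgtctaga were then searched in all kept intervals and found in 34, on 14 chromosomes, of which 14 lay in introns and 20 in intergenic DNA and 28 map uniquely in at least 90% of tiles. Their summed YAP1 counts were 1404 and 1182 in vehicle and 95 and 79 in sorbitol. In CPM this was 227.7 and 233.4 against 56.6 and 66.9, 3.74-fold lower, and the groups did not overlap. Mean CPM was lower with sorbitol in 34 of 34 intervals, and both sorbitol libraries lay under both vehicle libraries in 30. Both counts include the pair that showed the letters. The same counts over all kept intervals were not made, so the 34 and the 30 have no share to be read against. An interval that entered the table through the YAP1 vehicle libraries alone would tend to be lower with sorbitol. At TRPC6P8, for example, YAP1 counts were 12 and 9 in vehicle and 0 and 2 in sorbitol, with 0 in every CTCF and RAD21 library. How far such selection shaped these counts was not tested.

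Without the pair that showed the letters, the other 32 intervals went from 191.9 ± 0.799 to 53.2 ± 3.69 CPM (SD, n = 2), 3.60-fold lower or -1.85 on the log2 scale (exact permutation p = 0.33, the smallest possible). The same 32 intervals changed by -0.40 on the log2 scale with CTCF, by -0.57 with RAD21 and by 0.10 with H3K27ac. Other distal intervals with GGAATG changed by 0.08 with YAP1, and distal intervals without it by 0.40. As a share of all remaining counts of a library, which needs no scaling, the 34 intervals went from 1033 and 1065 CPM to 237.6 and 284.1. Of the 34, 25 were tested, 10 were lower (40%, against 1.49% over all tested intervals) and 0 higher (0 at an unadjusted p under 0.05 in edgeR, 0 by DESeq2). The 10 include the intervals near TRPC6P5 and in TULP4, whose calls were known when the letters were taken from them, so the 40% is no test. DESeq2 called 6 of the 25 lower. The filter on low counts can be passed through the vehicle libraries alone, so selection by vehicle counts bears on this share too.

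Members of this set include an intron of LIN9, a subunit of the DREAM and MuvB complexes, with 191 and 166 counts in vehicle and 18 and 19 in sorbitol (chr1:226272083-226273150, log2 fold change -1.29). Near TMEM120B there were 123 and 77 against 12 and 5 (chr12:121710040-121710553, -1.57), and in an intron of IL26, a cytokine gene, 89 and 93 against 5 and 9 (chr12:68209199-68209867, -1.72). In NCOA7, a nuclear receptor co-activator gene, 39 and 39 stood against 2 and 0 (chr6:125912481-125912761, -3.27). These intervals share sequence, so they are not independent members.

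Promoters held 310 of 454 rises (68.28%) and 184 of 280 falls (65.71%) among the remaining intervals, both under the 74.33% of intervals not called. Coding sequence was the annotation of 34 rises (7.49%), 2 falls (0.71%) and 3.23% of intervals not called. Rises also gathered in single genes, since 29 genes held at least 2 of them and 5 held at least 3. Those 5 were GADD45B, BBC3 and TUBB4B with 4 each and ZNF703 and JUND with 3 each. Among falls, 2 genes held at least 2.

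GADD45B, a stress-induced protein that activates MAP kinase signalling, showed the largest named rise. Its interval 3.30 kb from the gene start, behind the gene at chr19:2479311-2479529, had 1 and 1 count in vehicle and 38 and 19 in sorbitol. The ratio was 111.9 with a 95% counting interval of 29.6 to 946.3, and the log2 fold change 6.52 ± 0.67 (adjusted p = 1.41e-06). Within the gene at chr19:2476257-2477466, counts were 41 and 35 in vehicle and 339 and 191 in sorbitol, and the level went from 6.78 ± 0.184 to 181.8 ± 28.5 CPM (SD, n = 2; log2 fold change 4.75). An interval upstream of the start site had a log2 fold change of 0.92 that did not pass the test (adjusted p = 0.38). The log2 fold changes inside and behind the gene were thus above that before it, a difference that was not tested.

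EGR1, an immediate early zinc-finger transcription factor, had 267 and 195 counts in vehicle and 344 and 241 in sorbitol at its promoter (chr5:138463916-138466561, log2 fold change 2.32). In its coding sequence (chr5:138466651-138467537) there were 9 and 16 against 140 and 73, a log2 fold change of 5.01 ± 0.31. SNAI1, the Snail repressor of epithelial genes, had 63 and 51 against 145 and 89 at the start (3.00). In its coding sequence (chr20:49983825-49984321) it had 9 and 13 against 80 and 46 (4.45). At both genes the summed raw counts were higher in sorbitol although the sorbitol libraries were shallower.

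TUBB4B, a beta-tubulin, did not pass the test at its start site, with 211 and 176 counts in vehicle and 74 and 35 in sorbitol (log2 fold change 0.12, adjusted p = 0.81). Its body and the DNA behind it rose in every interval, with log2 fold changes of 4.03, 4.65, 4.72 and 3.94, and 4.14 in an interval assigned to FAM166A that lies 4.14 kb from the TUBB4B start. In the strongest, chr9:137242783-137243077, counts were 9 and 2 against 56 and 22. JUND, an AP-1 subunit, rose in 3 intervals (1.28, 3.10 and 1.67), and BBC3, which encodes the pro-apoptotic protein PUMA, in 4 (1.75, 1.35, 2.22 and 1.58). Scaled to the total over the table, the JUND interval at its start was -0.16 and the BBC3 interval with 1.35 was -0.06. An interval 1.45 kb into BBC3 had 0.05 and did not pass the test (adjusted p = 0.95). The BBC3 calls with 1.75 and 1.58 were lost without vehicle library 2, and that with 1.35 without vehicle library 1.

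**Figure D4:**
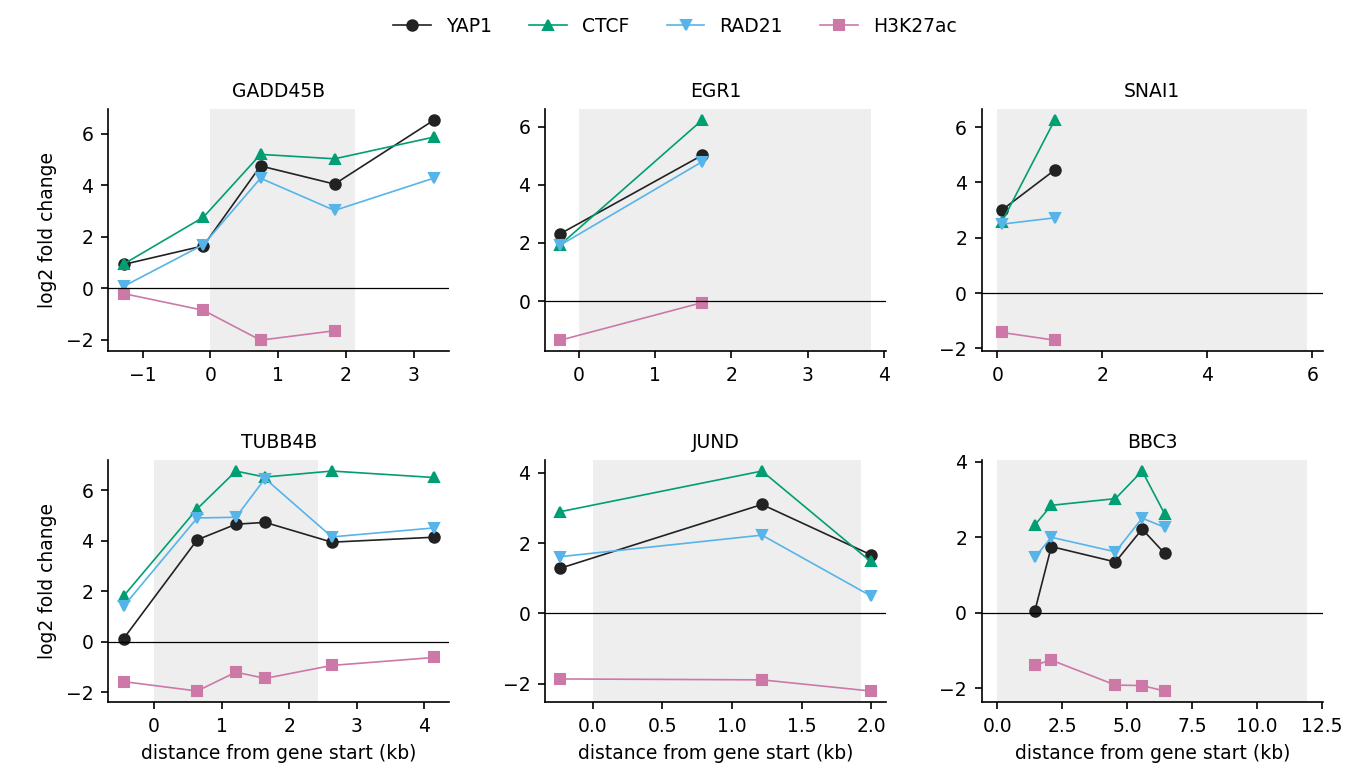
Log2 fold change, sorbitol minus vehicle, of every interval tested for YAP1 in or near 6 genes, against the distance of its centre from the gene start in kb, with the gene body in grey. Lines join the intervals of an antibody. In TUBB4B the YAP1 values go from 0.12 at the start to 4.72 in the body, with CTCF and RAD21 above 0 at the same intervals, and H3K27ac lies under 0 in all 6 panels.

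The other large rises included DNAJB6, an HSP40 co-chaperone, with 13 and 4 counts in vehicle and 31 and 28 in sorbitol (log2 fold change 3.77). KDM2B, a histone demethylase, had 2 and 9 against 16 and 22 in an intron (3.73), and there H3K27ac was higher as well (2.68, adjusted p = 0.0046). The non-coding gene ENSG00000284591 had 9 and 2 against 23 and 22 (4.00). Named rises in intervals that map to several places were those of LSS, EHMT1, ENSG00000230021, ARHGAP39, ITGB1BP1 and DBNDD1, with log2 fold changes from 3.63 at DBNDD1 to 4.80 at LSS, and are uncertain. CTCF was called higher at 13 of the 14 named rises and not at LSS (1.72, adjusted p = 0.058), whose YAP1 call was lost without sorbitol library 2.

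The immediate early genes, which respond to stimuli without new protein synthesis, had 97 tested intervals of 36 genes, 13 higher (13.4%) and 2 lower (2.06%), against 4.69% and 1.49% over all tested intervals. Their median was 0.19, beside -0.04 over all. Genes with rises included EGR1, HES1, ID2, IER2, IER3, IER5, IER5L, PER1 and ZFP36, and those with falls CCN1 and NFKBIA. ID2, an inhibitor of basic helix-loop-helix factors, had 104 and 77 counts in vehicle and 194 and 125 in sorbitol (log2 fold change 2.79). At the same intervals CTCF was higher in 55 of 89 tested and lower in 8, and H3K27ac was lower in 58 of 97 and higher in 3.

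Of 39 tested AP-1 family intervals, 7 were higher (17.95%) and 1 lower (2.56%), against 4.69% and 1.49% over all tested intervals. FOSB rose in a UTR interval, with 51 and 41 counts in vehicle and 56 and 43 in sorbitol (log2 fold change 2.08), and in an intron (1.45). Another call counted near FOSB lies at the start of ERCC1, a DNA repair gene, with 1.49 for YAP1 and -1.22 for CTCF. ATF3, a stress-induced member of the family, had 61.0 and 62.8 CPM in vehicle and 132.8 and 121.9 CPM in sorbitol (1.04). The raw counts of ATF3 were lower in sorbitol, and scaled to the total over the table it was -0.38. MAFK, a small Maf protein, was the fall, with 104 and 72 against 13 and 2 (-1.59). ATF3 and MAFK lost their calls without either vehicle library, and MAFK also without sorbitol library 2. The FOSB intron lost its call without sorbitol library 2 and without either vehicle library. The interval at ERCC1 lost its call without sorbitol library 1 and without vehicle library 2.

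Among 21 tested intervals of dual specificity phosphatases, which switch off MAP kinases, DUSP1 was higher (173 and 161 counts in vehicle, 106 and 87 in sorbitol, log2 fold change 1.19) and DUSP10 lower (37 and 20 against 0 and 1, a ratio of 14.5 with a counting interval of 2.50 to 583.3). KLF6 was the only call in 21 intervals of Krüppel-like factors (137 and 119 against 100 and 76, 1.43). A single call in 21 is 4.76%, near the 4.69% higher over all tested intervals. For a lower call such as DUSP10 the share over all was 1.49%. Chaperone genes had 6 higher of 40 (15.0%, against 4.69% over all tested intervals) and 0 lower (5 at an unadjusted p under 0.05 in edgeR, 0 by DESeq2). In the remaining intervals, without the copies of HSPA1A and HSPA1B, 3 of 33 were higher, against 2.42% of all remaining tested intervals. The chaperone calls included HSPA8, the constitutive HSP70, with 233 and 155 against 131 and 95 (1.21), and DNAJB1, its co-chaperone, with 200 and 162 against 73 and 85 (0.81). HSPA1A and HSPA1B rose too (1.59, 1.68 and 1.01), but these near-identical copies share reads and are uncertain. DUSP1, HSPA8 and DNAJB1 had negative log2 fold changes when scaled to the total over the table (-0.25, -0.23 and -0.64). DUSP10 lost its call without sorbitol library 1 and without either vehicle library, DUSP1 without vehicle library 1 and HSPA8 without vehicle library 2. DNAJB1 lost its call without sorbitol library 2 and without either vehicle library. HSPA1A lost its call without sorbitol library 1 and without vehicle library 1. Both HSPA1B intervals lost theirs without sorbitol library 1 and without either vehicle library.

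DDIT3 and ATF4, transcription factors of the integrated stress response, were the 2 calls in 24 intervals of that list (8.33%, against 4.69% higher over all tested intervals). DDIT3 had 422 and 318 counts in vehicle and 289 and 192 in sorbitol (log2 fold change 1.35), and ATF4 had 231 and 153 against 94 and 78 (0.84). Scaled to the total over the table they were -0.08 and -0.60, and ATF4 lost its call without either vehicle library. The p53 targets had 6 higher of 35 (17.14%, with the same 4.69% over all), at BBC3 and near BAX, a pore-forming apoptosis protein, and a list median of -0.24. The intervals near BAX lie over FTL, the ferritin light chain gene, with 92 and 73 against 87 and 38 in the deeper (1.54). Actin genes and targets of the serum response factor had 6 higher of 54 (11.11%, with the same 4.69% over all). In the remaining intervals 5 of 48 were higher, against 2.42% of all remaining tested intervals. Among the calls were ACTG1 (98 and 81 against 112 and 65, 1.94), FLNA (28 and 15 against 23 and 18, 1.92) and ACTB (205 and 210 against 110 and 67, 0.72, or -0.70 scaled to the total over the table). Lower calls were 0 in these 3 lists, with 3, 4 and 3 at an unadjusted p under 0.05 in edgeR and 0 by DESeq2. ACTB lost its call without sorbitol library 1 and without either vehicle library, and FLNA without vehicle library 2. The other interval near BAX lost its call without sorbitol library 1 and without either vehicle library.

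The osmolyte and NFAT5 list, which holds the transporters and enzymes that cells use to adapt to salt, had 0 of 24 intervals called. Over all tested intervals 6.18% were called, so few calls would be expected among 24 and the 0 is near that share. In this list 1 was higher and 1 lower at an unadjusted p under 0.05 in edgeR, DESeq2 called 0, and the median was 0.23. Replication-dependent histone genes had 10 higher of 52 (19.23%, against 4.69% over all tested intervals) and a median of 0.31. In the remaining intervals 4 of 38 were higher, against 2.42% of all remaining tested intervals. Among the calls was the interval of H2AC12, H2BC12 and H4C9 (114 and 91 counts in vehicle, 116 and 86 in sorbitol, log2 fold change 1.95). The copies in the cluster on chromosome 1 map to several places and are uncertain. Ribosomal protein genes had 6 higher and 3 lower of 168 (3.57% and 1.79%), near the 4.69% and 1.49% over all tested intervals. Small nuclear RNA genes had 18 higher and 14 lower of 479 (3.76% and 2.92%, against 4.69% and 1.49% over all tested intervals), where families have many copies and the ANKRD1 interval is counted for its neighbour. RNVU1-18 and RNVU1-23 share an interval (chr1:143720192-143721080) with 60 and 46 counts in vehicle and 0 in both sorbitol libraries, at least 4.35-fold lower.

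The other antibodies were read at the same intervals in libraries that had no part in the YAP1 calls. Over all their tested intervals, CTCF was called higher in 19.2% and lower in 20.8%, RAD21 in 3.07% and 1.45%, and H3K27ac in 8.55% and 14.5%. Where YAP1 was higher in the remaining intervals, CTCF was higher in 362 of 431 tested and lower in 17, with a median log2 fold change of 1.98. RAD21 was higher there in 127 of 363 (median 1.13), and H3K27ac higher in 40 of 431 and lower in 194 (median -0.32). Where YAP1 was lower, CTCF was higher in 33 of 216 and lower in 17 (median 0.14), RAD21 was higher in 1 of 166 (median -0.05), and H3K27ac was higher in 32 of 278 and lower in 92 (median -0.14). Most called rises of eGFP-YAP were thus also called rises of CTCF, while few of its falls were called lower with CTCF. Scaled to the total over the table, CTCF was higher at 2 of 262 tested YAP1 falls over all groups and lower at 123.

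**Figure D5:**
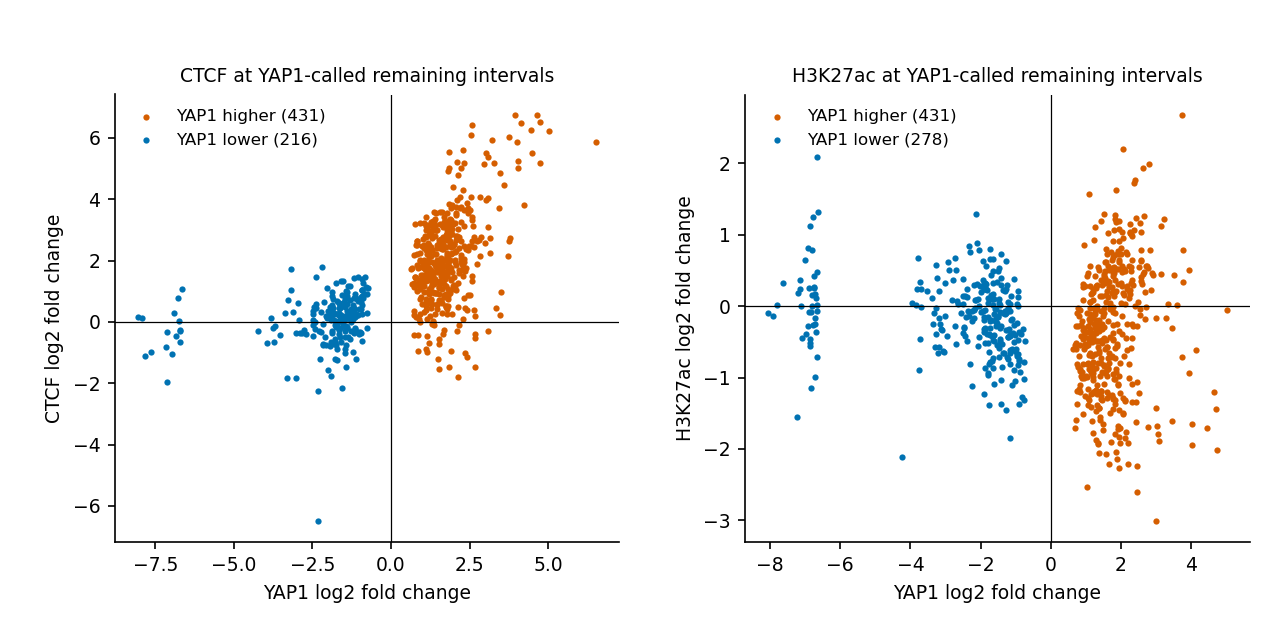
Log2 fold change of CTCF (left) and H3K27ac (right) against that of YAP1, with 1 point per remaining interval called for YAP1 and tested with the other antibody. In the left panel the 431 YAP1 rises lie mostly above 0 for CTCF, with a median of 1.98, and the 216 YAP1 falls scatter around 0, with a median of 0.14. The strip of points at the far left holds intervals with few or no sorbitol counts, whose fitted size is no bound.

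The difference between antibodies was tested directly as an interaction of antibody and treatment, over the 4 YAP1 libraries and 4 of the other antibody. Over all tested intervals the YAP1 response was above that of CTCF in 3.61% and below it in 7.91%. For RAD21 the shares were 0.143% and 0.428%, and for H3K27ac 2.48% and 3.75%. At the 280 remaining falls YAP1 lay below CTCF in 149, below RAD21 in 20 and below H3K27ac in 224, and above any of them in 0 (0 also at an unadjusted p under 0.05 in edgeR; DESeq2 was not run for this test). At the 454 remaining rises YAP1 lay above CTCF in 37 and below it in 123, above RAD21 in 12 and below it in 5 of 439, and above H3K27ac in 278. These tests share the YAP1 libraries that made the calls, so their direction is not independent of them. For ANKRD1 the difference from H3K27ac was -3.14 (adjusted p = 0.0051) and that from CTCF -1.97 (adjusted p = 0.47), which did not pass the test.

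Promoter intervals took 70.33% and 69.39% of the kept YAP1 counts in vehicle and 67.35% and 65.81% in sorbitol, and in the remaining intervals 76.20% and 76.11% against 72.71% and 70.67%. The groups did not overlap in either case (exact permutation p = 0.33, the smallest possible). The 14886 intervals of lowest GC content (20.12%) went from 11.19% and 11.85% to 22.05% and 25.61% over all kept intervals. In the remaining intervals they went from 4.72% and 4.84% to 4.83% and 5.74%, where the groups overlap.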

How the data were processed

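The data were 16 CUT&Tag libraries of HEK293 eGFP-YAP cells, 4 for each of GFP (called YAP1), CTCF, RAD21 and H3K27ac, with 2 vehicle and 2 sorbitol libraries each. Per the file headers, the deposited table holds counts of reads per interval for all libraries, and its values are whole numbers that were used unchanged. The submitters' processing notes name BWA 0.7.17, bedtools 2.31.1, MACS2 2.2.6, Trim Galore, FastQC, SAMtools and Picard and the builds hg38 and GRCh38, with no order or role. Whether peak calling pooled libraries, and whether duplicates were removed, is not given in the sources used here. PCR copies are not independent molecules, so counting intervals and bounds cover counting error only.

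Each antibody was fitted on its own 4 libraries over the whole table with edgeR 4.0.16 (quasi-likelihood, robust, TMM, filterByExpr, two-sided, Benjamini-Hochberg, R 4.3.3), and differences between antibodies as an interaction over 8 libraries. Adjusted p-values quoted without another name come from this test, and the threshold was 0.05. The scripts were tested on simulated data. Shares of counts were compared with exact two-sided permutation tests of 2 against 2 libraries, which cannot go below 0.33. Intervals were annotated with GENCODE 44, with promoters within 1 kb of a start site and genes within 10 kb. Unique mapping was measured with minimap2 2.31 on tiles of 100 bases. The numbers of the libraries are not stated to pair them, so no block was used.

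Intervals were named if they passed the test, exceeded the median tested interval in mean CPM and had groups that did not overlap. Of these the 14 genes with the largest rise and the 14 with the largest fall were taken, 1 interval a gene. Called intervals of the 15 gene lists were added, all where a list had at most 8 and otherwise the 4 largest, of which 1 is not reported here. Other intervals, such as those of gene panels, sequence groups and shared letters, were chosen after their values were seen. The members and lists were chosen with earlier results of these data known. Alternatives were DESeq2 1.42.0, other scalings and filters, GC correction, a replicate block, a fit of all 16 libraries, and leaving out each library. A fit on the remaining intervals alone, and the sorting into groups of sequence, were added after seeing the data.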

Additional observations from a re-analysis of the deposited data

Results flagged for a closer look

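Responses to sorbitol differed between antibodies by an interaction test in edgeR. The response of YAP1 differed from that of CTCF at 4997 intervals, from that of RAD21 at 176 and from that of H3K27ac at 3272. Data outside the compared intervals also carried signal above the vehicle libraries. Intervals on the mitochondrial genome took 56.6% of YAP1 counts with sorbitol against 37.33% in vehicle, and the YAP1 gene took 12.82% against 11.7%. The mitochondrial share also went from 17.81% to 33.32% with CTCF and from 36.39% to 45.4% with RAD21, but from 2.06% to 1.97% with H3K27ac.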

How the results depend on the processing

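The number of calls followed the scaling, the filter and the libraries. Against 1393 calls (1057 higher, 336 lower), DESeq2 gave 179 lower, a mean of at least 50 counts gave 600 higher, no filter gave 2298 calls with 1496 lower, and scaling to the weakest 25% of intervals gave 650 lower. Scaling to the total over kept intervals gave 4717 calls (598 higher, 4119 lower) and to the whole table gave 14684 calls (248 higher, 14436 lower). The remaining intervals fitted alone gave 657 (436 higher, 221 lower). Leaving out 1 library gave 652 to 2287 calls, 613 to 1263 higher and 39 to 1024 lower. With the replicate block there were 1170 calls (919 higher, 251 lower), 1146 of them shared with the fit without it. The paired numbers did not deviate together (r = -0.004 over 19077 intervals, 2 pairs), and the labels do not say that they mark shared cultures.

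Scaled to the total over the table, CTCF was lower at 78 YAP1 rises, higher at 2 YAP1 falls and lower at 123. RAD21 was higher at 136 YAP1 rises and lower at 14, and higher at 0 YAP1 falls and lower at 5 (edgeR; DESeq2 was not run for it). H3K27ac was higher at 55 YAP1 falls. The interaction put YAP1 below RAD21 at 819 intervals, and above H3K27ac at 276 and below it at 17988. With the replicate block, YAP1 lay above CTCF at 1050 intervals and below it at 2890. Fitted over kept intervals alone, RAD21 was higher at 0 YAP1 falls.

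The promoter share moved by -4.76 percentage points with a window of 500 bp and by -4.46 in the remaining intervals, against -3.28. The share with TEAD letters moved by 1.90 over whole intervals and turned to -0.54 in the remaining intervals, against 2.59. Scaled to the total over the table, 11 of 79 named intervals reversed: JUND -0.16, ATF3 -0.38, DUSP1 -0.25, HSPA8 -0.23, HSPA1B -0.41, DNAJB1 -0.64, DDIT3 -0.078, ATF4 -0.60, BBC3 -0.063, CNN2 -0.15 and ACTB -0.70. The cause was not tested. Without vehicle library 1 or 2, 24 and 26 named intervals lost their call. The sorbitol depth of 803927 and 659976 kept counts limits the falls, of which 107 had at most 3 counts in each sorbitol library.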
